A study of Capra hircus with 2 samples.

Results

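SOD1 and COX17 are 2 copper-handling genes among the 154 complete gene rows analysed here, in single ovarian granulosa cells of Ji'ning grey goats. They were taken by name. SOD1 encodes the copper and zinc superoxide dismutase, which turns superoxide into hydrogen peroxide and oxygen in the cytosol. COX17 encodes a small chaperone that carries copper in the space between the mitochondrial membranes, for the assembly of cytochrome c oxidase. Granulosa cells surround the oocyte in the follicle, nourish it and make steroid hormones, a task that runs through mitochondria and gives off reactive oxygen. Copper is the shared cofactor: a cell has to deliver it to both proteins while keeping the free ion low.

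Droplet-based single-cell RNA sequencing had been run on 2 libraries. The high fertility library, called HGC after the prefix of its cells, came from goats that bear more than 3 kids per birth. The low fertility library, LGC, came from goats that bear fewer than 2. Both hold ovarian granulosa cells of the same breed, and the labels name no treatment and no genetic change. Age, stage of the cycle, size of the follicles and the number of goats behind each library were not given in the sources used here. With 1 library per group, a difference between the libraries cannot be told apart from one between single goats, dissections or library preparations, so no test between groups was made.

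The table held 7106 cells of HGC and 3345 cells of LGC, with a median depth of 7214.5 and 11080 unique molecular identifiers (UMIs) per cell. That is 10451 cells in all, where the series' text gives about 12000 and no filter on cells. The libraries shared 27 cell barcodes, and leaving these cells out moved neither the library ratios nor the joint detection given below past their counting intervals. No doublet caller was run. None of the 9 granulosa markers looked for by symbol, among them FSHR, CYP19A1 and AMH, was found among the 154 rows. The labelled cell type was therefore not checked, and no cell class was named. Of 9 marker lists in all, only that of the surface epithelium had a row here, UPK1B. SOD1 and the other rows with a match in the RefSeq table lie on chromosome 1. COX17 had no match there. SOD1 and COX17 stand in the deposited table with 128 rows between them.

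SOD1 was the row with the highest and COX17 the row with the second highest level in LGC relative to HGC, among the 44 rows that reached 10 CPM (UMIs of the gene per 1000000 UMIs of the library) in either library. SOD1 stood at 14.3 CPM in HGC (exact 95% Poisson interval 13.4 to 15.3, on 913 UMIs) and at 27.0 CPM in LGC (25.5 to 28.5, on 1232 UMIs). Its ratio low over high was 1.88 (exact 95% binomial interval 1.73 to 2.05). COX17 stood at 53.7 CPM in HGC (52.0 to 55.6, on 3427 UMIs) and at 94.8 CPM in LGC (92.0 to 97.7, on 4331 UMIs), a ratio of 1.76 (1.69 to 1.85). These intervals cover counting error only.

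Both genes, 2 of 2, passed a ratio low over high of 1.5, and they were the only rows to do so, 4.55% of the 44. In the other direction 5 rows passed 1.5-fold. The median ratio of the 44 rows was 0.877, so both genes stood above 1 where most other rows stood below it. Set against the median ratio of 18 abundant rows, which was 0.893, the ratios were 2.11 for SOD1 and 1.98 for COX17. SOD1 and COX17 had been picked with these ratios already known, and their place at the end of the order is therefore a description.

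**Figure D1:**
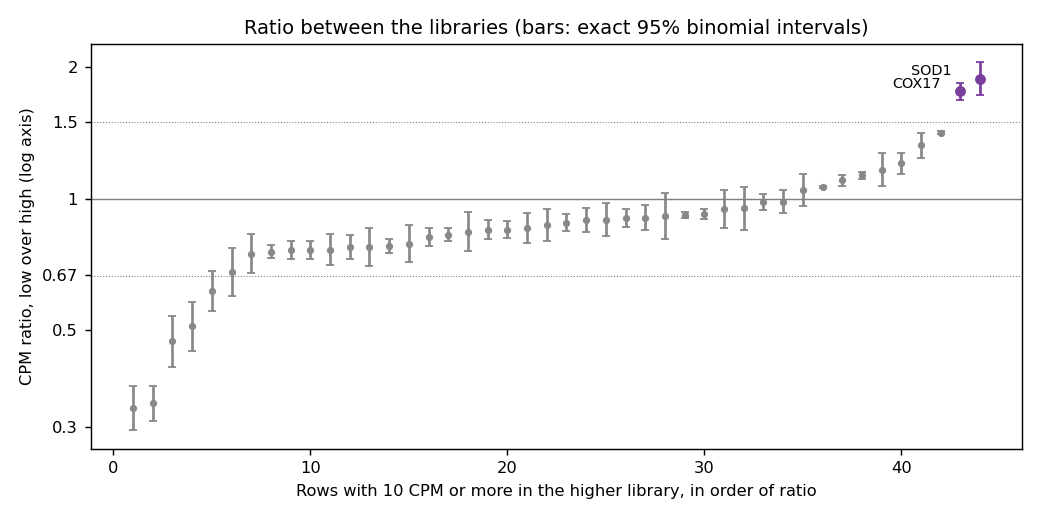
Ratio of CPM, low over high fertility library, for 44 rows that reached 10 CPM in either library (vertical log axis), placed in order of ratio on the horizontal axis, with exact 95% binomial intervals as bars. SOD1 (1.88) and COX17 (1.76) are the 2 points above the upper dotted line at 1.5-fold.

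The 2 genes kept nearly the same proportion to each other in both libraries. There were 3.75 COX17 UMIs for each SOD1 UMI in HGC (exact 95% interval 3.49 to 4.04) and 3.52 in LGC (3.30 to 3.75). The intervals overlap. The UMIs were not set per length and capture differs between genes, so this proportion compares libraries and is no ratio of transcripts.

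The gap between the libraries was present at every cell depth. SOD1 in HGC lay between 12.8 and 15.7 CPM in all bins of depth above 2500 UMIs. In LGC it lay between 22.4 and 32.5 CPM over the same bins. The ranges do not overlap, and the ratio ran from 1.48 (1.16 to 1.90) in cells above 30000 UMIs to 3.90 (1.43 to 12.3) in cells of 2500 UMIs or fewer, where HGC held only 6 SOD1 UMIs. The level of SOD1 showed no steady rise or fall with depth in either library.

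COX17 varied more with depth. In HGC it was highest in the shallowest cells, at 75.9 CPM (57.4 to 98.6) up to 2500 UMIs and 62.9 CPM (56.5 to 69.8) from there to 5000 UMIs, and lay between 48.6 and 60.8 CPM in deeper cells. In LGC it peaked at 119 CPM (110 to 130) in cells of 7500 to 10000 UMIs and was lowest at 72.1 CPM (67.1 to 77.3) above 30000 UMIs. The ratio low over high was largest in that middle bin, at 2.36 (2.10 to 2.65), and smallest in the deepest cells, at 1.18 (1.05 to 1.34). Both genes were higher in LGC in 8 of 8 bins, with the interval above 1 in 8 bins for SOD1 and in 7 for COX17. The exception was COX17 up to 2500 UMIs, at 1.31 (0.869 to 1.965).

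**Figure D2:**
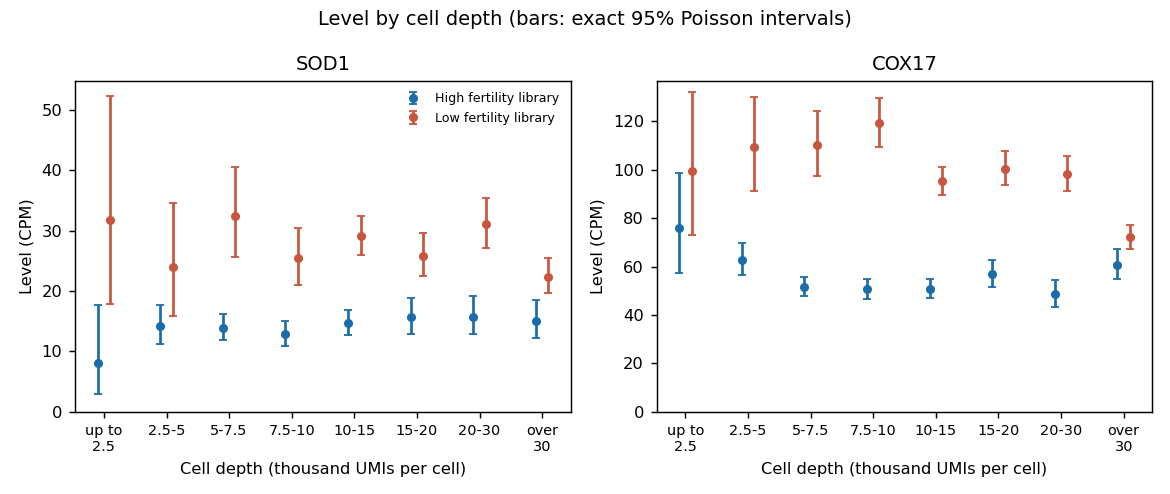
Level in CPM (vertical axis, from 0) of SOD1 and COX17 in 8 bins of cell depth (horizontal axis, in units of 1000 UMIs per cell), by library, with exact 95% Poisson intervals as bars. The LGC points lie above the HGC points in every bin, and for COX17 they come closest in cells above 30000 UMIs (60.8 and 72.1 CPM).

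At a matched depth of 7500 to 10000 UMIs the difference was seen in how many cells held a UMI and in how many they held. This window held 1409 cells of HGC and 525 of LGC, with median depths of 8521 and 8809 UMIs. SOD1 was found as 1 UMI in 9.72% of HGC and 15.6% of LGC cells, and as 2 UMIs in 0.568% and 3.05%. COX17 was found as 1 UMI in 21.8% and 27.8%, as 2 UMIs in 6.25% and 14.5% and as 3 or more in 2.63% and 11.6% of the cells. The libraries lay further apart at higher COX17 counts than at 1 UMI. A higher mean per cell, here 0.436 UMIs in HGC and 1.05 in LGC, brings this by itself, so it is no separate result.

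Over all cells SOD1 was found in 11.4% of the HGC cells (exact 95% binomial interval 10.6% to 12.1%) and in 27.4% of the LGC cells (25.9% to 28.9%). COX17 was found in 31.3% (30.2% to 32.4%) and 56.7% (55.0% to 58.4%). On the deposited natural log scale the mean over cells was 0.084 ± 0.258 (SD over 7106 cells) in HGC and 0.177 ± 0.335 (3345 cells) in LGC for SOD1, and 0.291 ± 0.487 and 0.518 ± 0.566 for COX17. Thinning each cell to 2000 UMIs, which left out 208 and 132 shallower cells, brought SOD1 to 2.79% and 5.39% and COX17 to 9.79% and 17.1%. Both genes are in use in nearly all cell types and no cell class could be named here, so the share that free RNA alone would reach is not known.

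The UMI counts of SOD1 lay close to Poisson sampling, whereas those of COX17 did not. The variance of SOD1 UMIs around the number expected at each cell's depth was 1.05 times that of Poisson sampling in HGC and 1.14 times in LGC. For COX17 it was 1.43 and 2.10 times, while the median of 77 rows with at least 100 UMIs in each library was 1.148 and 1.199 times. Taking the counting noise out leaves an excess variance, the square of the coefficient of variation of the level between cells. It was 0.197 and 0.233 for SOD1, below the median of these rows (0.551 and 0.555), and 0.551 and 0.579 for COX17, close to that median. From the highest to the lowest excess variance, SOD1 stood at place 62 in HGC and 55 in LGC of the 77 rows, and COX17 at 39 and 37. The Poisson ratio grows with the number of UMIs per gene and the excess variance does not. With means of 0.128 and 0.368 SOD1 UMIs per cell in HGC and LGC, a ratio near 1 therefore does not show an even level.

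In counts of cells, HGC had 6298 cells without SOD1, where Poisson sampling at each cell's depth gave 6285, and 718 cells with 1 UMI against 739 expected. LGC had 2429 cells without SOD1 against 2392, and 6 cells with 5 or more UMIs against 2.67. SOD1 in no cell exceeded 4 UMIs in HGC and 7 UMIs in LGC.

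COX17 had more empty cells and more rich cells than expected. In HGC 57 cells held 5 or more UMIs where 19.6 were expected, and 4881 cells held none against 4619. In LGC 203 cells held 5 or more against 113 expected, and 1448 held none against 1190. Cells with 3 UMIs were fewer than expected there, 203 against 301. The cells with 5 or more UMIs carried 9.95% of all COX17 UMIs of HGC and 31.6% of LGC, and the richest cells held 11 and 23 UMIs.

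**Figure D3:**
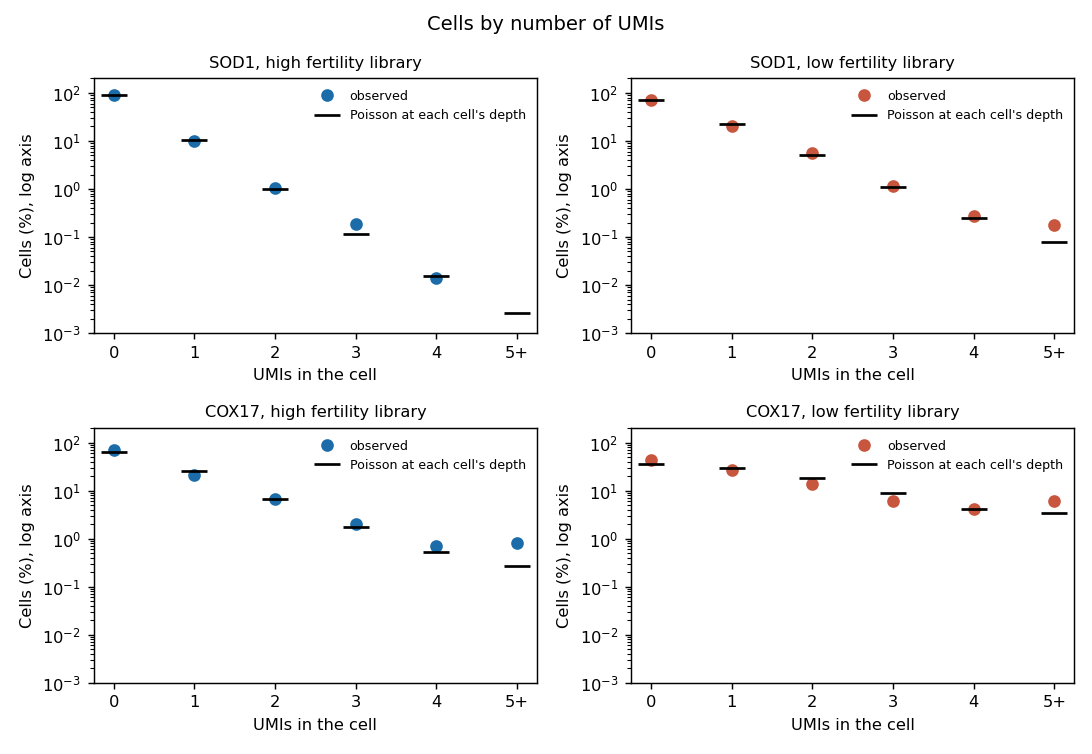
Share of cells (vertical log axis, percent) by number of UMIs of SOD1 and COX17 in the cell (horizontal axis), by library. Points are observed cells and dashes the share expected from Poisson sampling at each cell's depth. SOD1 follows the dashes closely up to 2 UMIs, while COX17 exceeds them at 5 or more (57 cells against 19.6 and 203 against 113). HGC had no cell with 5 or more SOD1 UMIs.

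COX17 was somewhat higher in cells with SOD1, and SOD1 in cells with COX17. Depth alone puts both genes into the same cells: the median depth was 10139.5 UMIs in HGC cells with SOD1 and 6977 in those without, and 9172 and 6607 for COX17. In LGC the medians were 14739.5 and 9731 for SOD1 and 13339 and 8427 for COX17. The values below therefore compare cells within 20 strata of equal cell number by depth in each library. At matched depth, the 808 HGC cells with a SOD1 UMI held 1.253 times (1.16 to 1.35) the COX17 UMIs expected from cells without SOD1, and the 916 LGC cells 1.18 times (1.13 to 1.24). Here and below, the interval covers the observed UMIs only and takes the expected number as fixed. Of the 76 other rows, 5 (6.58%) were at least 25% higher in cells with SOD1 in HGC and 8 (10.5%) in LGC. COX17 was just past that size in HGC and under it in LGC. ROBO1 stood above COX17 in both libraries, at 1.42 times in HGC and 1.88 times in LGC. It rests on 69 and 59 UMIs in cells with SOD1. CHODL also stood above COX17 in both, at 1.32 and 1.87 times, on 64 and 42 UMIs. The intervals of ROBO1 and CHODL lay above 1 in both libraries, so COX17 was not the row with the largest fold. The median fold of the 76 rows was 0.983 in HGC and 1.05 in LGC, below COX17 in both.

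Cells with both genes numbered 374 in HGC, where 336 were expected within strata, a ratio of 1.11 (1.00 to 1.23). Without strata the ratio would have been 1.48. In LGC 648 cells held both against 615 expected, 1.05 times (0.974 to 1.14), and 1.247 times without strata. The LGC interval holds 1. After thinning each cell to 2000 UMIs, the ratios were 1.22 and 1.24, taken without strata and with no interval.

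The correlation over cells of depth residuals (the UMIs less those expected, divided by the square root of the expected number) was 0.042 over 7106 cells of HGC and 0.098 over 3345 cells of LGC. In counts this sparse, such correlations are too weak to be a finding by themselves, and the cells of a library share its preparation. The covariance of the 2 levels with counting noise taken out, which does not scale with depth, was 0.171 and 0.172.

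COX17 was highest in cells with 2 or more SOD1 UMIs, apart from the few HGC cells with 3 or more. In HGC observed over expected COX17 was 0.961 (0.925 to 0.997) in cells without SOD1, 1.17 (1.08 to 1.27) at 1 UMI, 1.26 (1.03 to 1.51) at 2 UMIs and 1.05 (0.634 to 1.64) in the 14 cells with 3 or more. In LGC the values were 0.940 (0.904 to 0.977), 1.03 (0.966 to 1.09), 1.23 (1.13 to 1.35) and, in 53 cells with 3 or more, 1.30 (1.13 to 1.501). Cells without SOD1 lay below 1 and cells with 2 UMIs above it in both libraries.

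Read the other way, SOD1 stood at 0.923 (0.841 to 1.01) of expectation in HGC cells without COX17 and at 1.31 (0.973 to 1.72) in the 107 cells with 4 or more COX17 UMIs. In LGC it stood at 0.889 (0.796 to 0.990) without COX17 and at 1.28 (1.13 to 1.43) in 339 cells with 4 or more, with 0.798 (0.640 to 0.983) at 3 UMIs. That last class breaks an otherwise rising order.

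In ranges of depth, COX17 in cells with SOD1 was at 1.05 (0.651 to 1.61), 1.34 (1.14 to 1.57) and 1.22 (1.12 to 1.32) times the level without it in HGC cells of 5000 UMIs or fewer, of 5000 to 10000 and above 10000. In LGC it was at 1.66 (1.04 to 2.51), 1.36 (1.18 to 1.57) and 1.15 (1.10 to 1.21) times. All 6 values lay above 1, and the interval held 1 only in the shallow HGC cells, which rest on 21 COX17 UMIs.

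**Figure D4:**
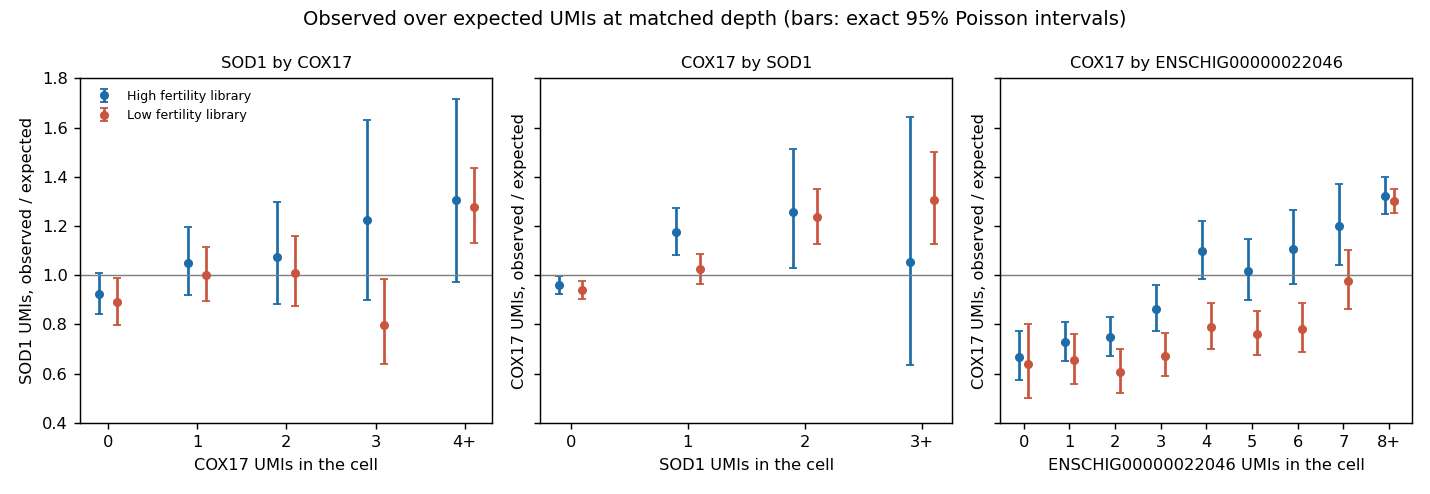
Observed over expected UMIs at matched depth (vertical axis) in cells grouped by their UMIs of another gene (horizontal axis), by library, with exact 95% Poisson intervals as bars: SOD1 by COX17, COX17 by SOD1 and COX17 by ENSCHIG00000022046. COX17 climbs from 0.668 and 0.639 in cells without ENSCHIG00000022046 to 1.32 and 1.30 in cells with 8 or more UMIs of it, a wider span than with SOD1.

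By the correlation of residuals, the row most like COX17 over cells was ENSCHIG00000022046, which has no symbol in the table and lies between GABPA and JAM2. The correlation was 0.259 in HGC and 0.407 in LGC, the highest of 76 rows in both. This measure favours rows with many UMIs, and by the covariance without counting noise ENSCHIG00000022046 (0.213 and 0.239) stood below ENSCHIG00000022648 (0.320 and 0.749). That covariance in turn favours rows that vary more between cells. The excess variance was 0.160 and 0.170 for ENSCHIG00000022046 and 2.11 and 3.00 for ENSCHIG00000022648, so the covariance does not settle which row is more like COX17. ENSCHIG00000022046 stood at 399.9 CPM in HGC and 453 CPM in LGC and was found in 86.2% and 91.8% of the cells. COX17 stood at 0.668 (0.573 to 0.773) of expectation in the 980 HGC cells without it and at 1.32 (1.248 to 1.40) in the 828 cells with 8 or more of its UMIs. In LGC the values were 0.639 (0.503 to 0.801) in 274 cells and 1.30 (1.251 to 1.35) in 966 cells.

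The link held in each range of depth. In cells with COX17, ENSCHIG00000022046 was 1.47 (1.36 to 1.58), 1.41 (1.37 to 1.46) and 1.23 (1.21 to 1.26) times as high as in other HGC cells of the 3 ranges, from shallow to deep. In LGC it was 1.37 (1.202 to 1.54), 1.62 (1.55 to 1.69) and 1.32 (1.30 to 1.34) times as high. At a given number of ENSCHIG00000022046 UMIs, the LGC cells still held more COX17 CPM, in 9 of 9 classes, from 38.5 against 68.1 CPM in cells without it to 71.8 against 113 CPM at 8 or more UMIs. SOD1 was likewise higher in LGC in 9 of 9 classes. Cells of the same class differed in depth between the libraries, with medians of 4442.5 and 2796 UMIs without the row and of 16906.5 and 18658 at 8 or more.

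By the correlation of residuals, ENSCHIG00000022046 also stood at the head of the 76 rows for SOD1, with 0.061 and 0.111, and COX17 came second by the mean of both libraries. The order was the reverse by the fold and the covariance, but both of these favour rows that vary more between cells. The excess variance was 0.551 and 0.579 for COX17 and 0.160 and 0.170 for ENSCHIG00000022046. Which of the 2 is more like SOD1 at equal spread was not tested. In cells with SOD1, ENSCHIG00000022046 was 1.09 (1.06 to 1.12) and 1.14 (1.11 to 1.16) times as high, less than COX17, and its covariance with SOD1 without counting noise was 0.082 and 0.122, beside 0.171 and 0.172 for COX17. SOD1 came 10th for COX17. Further rows named for SOD1 were ENSCHIG00000010079 (0.030 and 0.089), the chaperonin subunit gene CCT8 (0.027 and 0.061) and CMSS1 (0.036 and 0.050). ENSCHIG00000022648, in the fourth place for SOD1 just before CCT8, was passed over by the limit on rows without a symbol (0.031 and 0.059). The folds in cells with SOD1 were 1.03 and 1.13 for CCT8 and 1.06 and 1.11 for CMSS1. In counts this sparse, correlations of that size are no finding by themselves.

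Further rows named for COX17 were ENSCHIG00000022648 (correlation 0.110 and 0.250), CLDND1, a membrane protein gene of the claudin type (0.113 and 0.205), CMSS1 (0.095 and 0.132) and CCT8 (0.080 and 0.126). ENSCHIG00000010079, in the fourth place for COX17 just before CMSS1, was passed over by the same limit (0.098 and 0.176). In cells with COX17, ENSCHIG00000022648 was 1.52 times (1.42 to 1.63) as high in HGC and 2.25 times (2.09 to 2.42) in LGC. That was not the largest fold in either library. ROBO2 (1.62) and CD200 (1.59) stood above it in HGC, and COL8A1 (3.28) and ADAMTS1 (3.01) in LGC. In the other library ROBO2 stood at 0.921, CD200 at 1.68, COL8A1 at 0.965 and ADAMTS1 at 1.18. CLDND1 was 1.247 and 1.203 times, CMSS1 1.16 and 1.13 times and CCT8 1.08 and 1.17 times as high. Of the 76 other rows, 14 (18.4%) were at least 25% higher in cells with COX17 in HGC and 16 (21.1%) in LGC, with median folds of 1.09 and 1.06. SOD1, at 1.24 (1.13 to 1.36) and 1.08 (1.01 to 1.15), was not among them.

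At the other end, NFKBIZ, whose protein binds NF-kB in the nucleus, was the lowest row for SOD1, with correlations of -0.046 and -0.069. It stood at 0.834 (0.792 to 0.878) and 0.855 (0.818 to 0.893) of its level in cells without SOD1. In cells with COX17 it stood at 0.889 (0.861 to 0.918) and 0.901 (0.872 to 0.930). IFNGR2, which encodes part of the receptor for interferon gamma, stood at 0.873 (0.792 to 0.959) and 0.937 (0.875 to 1.001) in cells with SOD1, and PROS1, which encodes protein S, at 0.816 (0.760 to 0.875) and 0.945 (0.888 to 1.005). The lowest row for COX17 was ENSCHIG00000011680, with correlations of -0.105 and -0.151 and folds of 0.941 and 0.947. This row alone held 3586 and 3811 CPM. LSAMP, a cell adhesion gene, stood at 0.522 (0.415 to 0.649) in cells with COX17 in HGC and at 0.903 (0.699 to 1.15) in LGC, where the interval holds 1.

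**Figure D5:**
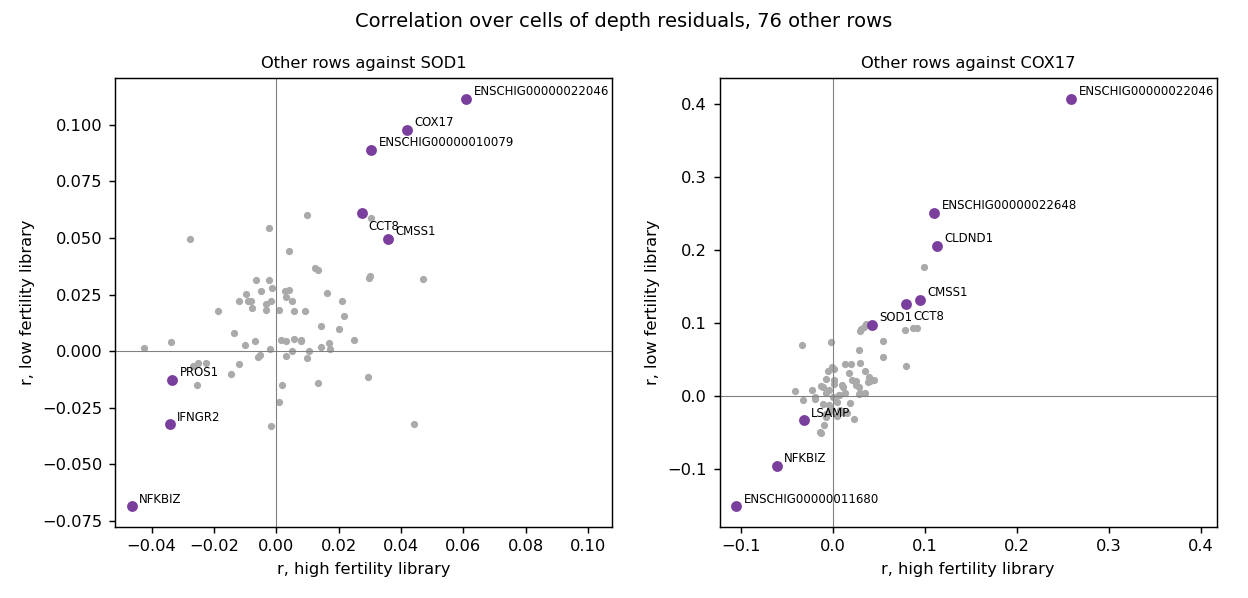
Pearson correlation over cells of depth residuals between each of 76 other rows and SOD1 (left) or COX17 (right), in HGC (horizontal axis) and LGC (vertical axis). Labelled points are the rows named by the rule on correlations, together with COX17 (left) or SOD1 (right). ENSCHIG00000022046 lies at the upper end in both panels (0.259 and 0.407 with COX17), and NFKBIZ lies low in both. The axes differ between the panels.

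The cells richest in COX17 were described for SOD1 and for rows named above by correlation, not for those named by fold or ratio. The 57 HGC cells with 5 or more COX17 UMIs had a median depth of 26312 UMIs and the 203 LGC cells one of 20117. The deepest strata reach up to 102029 UMIs in HGC and 137581 in LGC, so depth is matched only loosely there. Against other cells of the same depth strata, the cells rich in COX17 held 1.52 (1.43 to 1.62) and 1.55 (1.503 to 1.61) times the ENSCHIG00000022046. CLDND1 was 1.40 (1.14 to 1.71) and 1.88 (1.70 to 2.07) times as high. ENSCHIG00000022648 was 1.53 (1.19 to 1.95) and 3.24 (2.83 to 3.70) times as high. SOD1 was 1.34 (0.922 to 1.88) and 1.38 (1.19 to 1.59) times as high. NFKBIZ was at 0.647 (0.548 to 0.759) and 0.770 (0.709 to 0.835). PROS1 was at 0.446 (0.341 to 0.573) in these cells of HGC but at 1.02 (0.907 to 1.13) in those of LGC. The part of doublets in these deep cells was not tested.

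Few genes of the same pathways were found among the rows. Genes were looked for by symbol, and 37 of the 154 rows have only an identifier, so a listed gene could be among those. Of a list of 21 copper-handling genes only SOD1 and COX17 were found, and of 24 genes of antioxidant defence SOD1 and BACH1, a repressor of antioxidant genes. BACH1 stood at 1.38 CPM in HGC and 1.55 CPM in LGC, on 88 and 71 UMIs, a ratio low over high of 1.13 (0.812 to 1.56). No gene of a list of 18 for the respiratory chain and ATP synthase was found by symbol as a complete row.

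Of a list of 10 genes of mitochondria, drawn up mainly for translation, import and RNA processing, 5 were found by symbol as complete rows. MRPL39, of the large mitochondrial ribosomal subunit, was 1.17 times (1.13 to 1.21) as high in cells with COX17 in HGC and 1.16 times (1.12 to 1.202) in LGC, beside 1.01 (0.963 to 1.07) and 1.17 (1.12 to 1.22) in cells with SOD1. TRMT10C, a subunit of mitochondrial RNase P, was 1.11 (1.05 to 1.18) and 1.37 (1.29 to 1.44) times as high in cells with COX17. TOMM70, a receptor for protein import, was at 0.954 (0.912 to 0.998) and 1.07 (1.02 to 1.12). Of these 3 genes only TRMT10C was at least 25% higher with COX17, and only in LGC. MRPS6, on 85 and 194 UMIs, and TIMMDC1, on 25 and 26, did not reach 100 UMIs in both libraries, the minimum for this comparison. The 5 genes did not share 1 direction between the libraries. The ratios low over high of MRPL39, TRMT10C and TOMM70 were 0.828, 0.984 and 0.817. MRPS6, of the small mitochondrial ribosomal subunit, had a ratio of 3.19 (2.46 to 4.16), above SOD1 and COX17 but at only 1.33 CPM in HGC and 4.25 CPM in LGC. TIMMDC1 had a ratio of 1.45 (0.806 to 2.62), and its interval holds 1.

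The rows near SOD1 and COX17 were mostly at low levels, with ratios between the libraries in both directions. Beside SOD1 stand SCAF4, at 0.910 CPM in HGC and 0.854 CPM in LGC, and TIAM1, an exchange factor for Rac, at 6.10 and 5.04 CPM. HUNK, 2 rows away, stood at 1.71 and 0.744 CPM, lower in LGC. Beside COX17 stands ADPRH, at 2.07 and 2.32 CPM, and 2 rows away GSK3B, the kinase that marks beta-catenin for decay, at 27.1 and 23.3 CPM, a ratio low over high of 0.857. Of the 12 rows within 3 places of SOD1 or COX17, 1 reached a ratio of 1.5 or more: ENSCHIG00000019072, on 8 and 12 UMIs. Only GSK3B of the 12 reached 10 CPM in either library, and MIS18A rests on 8 and 8 UMIs and LRRC58 on 8 and 4. The share of 4.55% among the 44 rows at 10 CPM, SOD1 and COX17 themselves, is no background for rows below that level. Below 10 CPM rows elsewhere passed 1.5 too, among them MRPS6 at 3.19 and ENSCHIG00000007885 at 1.95. Whether the place of a row matters was not tested.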

How the data were processed

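The deposited table gives natural log values, with genes in rows and cells in columns. Cell Ranger 2.2.0 is named per the submitters' processing notes. The sources used here do not give the genome build, the annotation, the cell filter or the treatment of reads shared with gene copies. The values equal the natural log of 1 plus 10000 times UMIs over the cell's total. UMIs and totals were worked back from this with a tolerance of 0.0001, and all 177610 values above 0 in 154 complete rows came out whole. The table used here ends within a further row, NDUFB4, which raised the totals of 2 cells and was otherwise kept apart. A total, and with it the depth bin, could still be too low by a whole factor in a cell whose few UMIs in these rows share one. All deposited cells were kept. HGC held 63771519 UMIs in all and LGC 45674506, where a count of 0 allows 0.047 and 0.0657 CPM (3 UMIs).

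Expected UMIs of a cell are its total times the gene's rate in its depth stratum, over all cells of the stratum, or, for folds, over its cells without the other gene. Named rows are, per gene, the 5 highest and 3 lowest by mean correlation of residuals among rows with 100 UMIs in each library, list members, and 3 neighbours on each side. Rows without a symbol are named by identifier, at most 2 in each direction. ROBO1 and CHODL were named in addition, for their folds in cells with SOD1. ROBO2, CD200, COL8A1 and ADAMTS1 were named for their folds in cells with COX17, and ENSCHIG00000007885 for its ratio between the libraries. The cells with 5 or more COX17 UMIs and the covariance were added after seeing the data. SOD1, COX17 and the lists were chosen with earlier results of these data known. RefSeq (assembly ARS1.2) held 110 of 117 symbols; it was used for names and order only, as the builds may differ. Promoter sequences were not used here, so a planned motif search was not run. Measures were tested on simulated data. Python 3.11.15, numpy 2.4.6, scipy 1.17.1 and matplotlib 3.10.9 were used.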

Additional observations from a re-analysis of the deposited data

Results flagged for a closer look

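NDUFB4, a subunit gene of respiratory complex I, is the row left out of the comparisons because it is incomplete, but it covers all 7106 cells of HGC. It stood there at 220.3 CPM (exact 95% Poisson interval 217 to 224) on 14046 UMIs and was found in 73.0% of the cells, above the limit that a count of 0 allows. At matched depth it was 1.26 times (1.23 to 1.29) as high in cells with COX17 as in cells without it, and 1.11 times (1.07 to 1.15) as high in cells with SOD1. The correlations of depth residuals were 0.1504 with COX17 and 0.057 with SOD1. LGC was not analysed for this row.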

How the results depend on the processing

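The ratios low over high stayed above 1.5 in all 11 alternatives for SOD1 (1.79 to 2.11) and for COX17 (1.67 to 2.36). Of these, the mean over cells and the mean of back-transformed values are the same by construction and make 1 check. Outside their counting intervals lay, for SOD1 (1.88), 2.06 as a mean over cells, as a mean of back-transformed values and without cells above 15000 UMIs, and 2.11 when divided by the median ratio of 18 abundant rows (0.893, or -0.16 on the log2 scale). For COX17 (1.76) these were 1.98 with that division, 1.958 without cells above 15000 UMIs, 1.91 standardised over 8 depth bins, 1.67 in the low mode of ENSCHIG00000012599, and 2.36 in cells of 7500 to 10000 UMIs, a setting added after seeing the data. Joint detection ran from 1.11 to 1.22 over 8 alternatives in HGC and from 1.05 to 1.24 in LGC. There 1.24, after thinning to 2000 UMIs and without strata, lay outside the interval of 1.05. The Spearman correlation of the residuals was 0.242 in HGC, beside 0.042 by Pearson, and 0.090 in LGC, beside 0.098. By construction Spearman ranks cells without a UMI by depth, in both libraries. The cause of the shifts was not tested. Depth limits SOD1 in shallow cells, with 6 UMIs in HGC cells of 2500 UMIs or fewer. No paired analysis was possible because there is only 1 library on either side, with no replicate numbers.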

Other observations

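SOD1 and COX17 differed in how they sat in the low and the high mode of ENSCHIG00000012599, the row whose log values fall below 2.5 in 54.5% of HGC and 32.9% of LGC cells. At matched depth COX17 was below expectation in the low mode, at 0.901 (0.855 to 0.949) in HGC and 0.826 (0.776 to 0.879) in LGC, and above it in the high mode, at 1.09 (1.04 to 1.14) and 1.07 (1.03 to 1.10). SOD1 went the other way in HGC, at 1.12 (1.02 to 1.23) in the low and 0.896 (0.814 to 0.984) in the high mode. In LGC SOD1 stood at 1.02 (0.916 to 1.13) and 0.992 (0.928 to 1.06), with both intervals holding 1. Both genes were higher in LGC within each mode: SOD1 at 15.8 against 28.2 CPM and COX17 at 48.5 against 81.1 CPM in the low mode, and at 13.0 against 26.5 CPM and 58.4 against 99.9 CPM in the high mode.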
